A study of Mus musculus with 39 samples.

Results

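Vg6 T cells sorted from injured mouse muscle were set against the whole muscle in which such cells sit, both at day 3 after injury, to describe what these cells carry that the tissue around them does not. The comparison held 6 of the 39 libraries of the study: 3 of sorted Vg6 cells and 3 of whole tibialis anterior muscle. Of 55011 gene symbols in the count table, 13833 had 10 or more counts in at least 3 of the 6 libraries and were tested. Of these, 651 passed through the 3 Vg6 libraries alone and 1767 through the 3 muscle libraries alone, so that they had to differ, and 11415 passed with counts in both groups.

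The Vg6 cells came from wild-type mice whose hindlimb muscle had been injured by an injection of cardiotoxin, which kills muscle fibres and spares their stem cells, and these mice had no further treatment. The muscle was digested with enzymes and 1000 cells per library were sorted by flow cytometry. The whole-muscle samples came from wild-type mice with the same injury, which had also been given diphtheria toxin into the abdomen because they served as controls in a depletion experiment. That tissue was homogenised directly and 2 ng of purified RNA entered each library. Cell type, digestion and sorting, the kind of input, the toxin and any difference in the muscles sampled therefore cannot be told apart in any difference given here. Library totals ran from 5051164 to 6134194 counts in Vg6 cells and from 3579023 to 6502310 counts in whole muscle. The design text calls the samples of a group independent biological replicates, and no batch is given.

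γδ T cells carry an antigen receptor made of a γ and a δ chain, and those that use the Vγ6 chain leave the fetal thymus already committed to secrete interleukin 17A (IL-17A). They settle in barrier and connective tissues, where they answer the cytokines interleukin 1 and interleukin 23 without first meeting antigen. IL-17A acts on fibroblasts, epithelia and other stromal cells through a receptor built of the chains IL-17RA and IL-17RC. At this stage after cardiotoxin, whole muscle is a mixture of dying fibres, macrophages, fibroblasts, dividing myoblasts and vessels.

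Levels below are CPM, counts scaled to the library total, given per library in the order of replicates 1, 2 and 3 or as mean ± SD (n = 3 each). Log2 changes are Vg6 cells over whole muscle ± SE, with adjusted p-values of edgeR's quasi-likelihood test. Adjusted p under 0.05 was reached by 4502 genes that were higher in Vg6 cells (32.5% of those tested) and by 4906 that were lower (35.5%). A second test asked for a change of more than 4-fold, and 1001 genes passed it as higher (7.24%) and 2297 as lower (16.6%). The median log2 change over all tested genes was −0.03. Because most genes differed, the counts of list members below are read against these shares, and "past 4-fold" refers to the second test. The groups did not overlap for 10176 of the 13833 tested genes. A lack of overlap was therefore the usual state and does not by itself single out a gene named below.

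**Figure D1:**
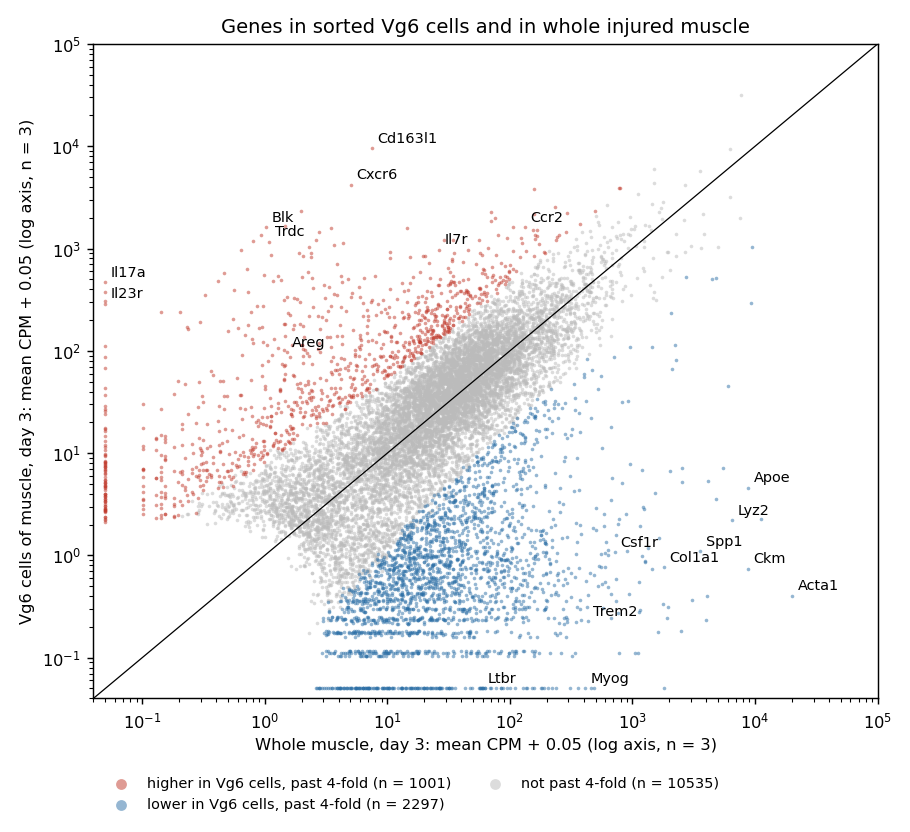
Mean CPM of each tested gene in sorted Vg6 cells (vertical, log axis) and in whole muscle (horizontal, log axis), n = 3 libraries each, with 0.05 added so that 0 can be drawn. The 1001 genes higher in Vg6 cells past 4-fold lie above the line of equal level, the 2297 lower ones below it, and Il17a and Il23r sit at the left edge, with 0 counts in muscle.

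The receptor genes were read against the sort label. Trdc, the constant gene of the δ chain (chromosome 14, 54142851 to 54148868 on GRCm38, as are all gene positions here), stood at 1153, 1216 and 1139.9 CPM in Vg6 cells and 0.769, 0.959 and 1.4 CPM in whole muscle. The variable gene Trgv6, which encodes the Vγ6 chain itself, stood at 936, 1013 and 979 CPM in Vg6 cells and 0.308, 1.2 and 0.279 CPM in muscle. The δ variable gene Trdv4 stood at 502, 498 and 449 CPM in Vg6 cells and 0.615, 0.48 and 0 CPM in muscle. The lowest Vg6 library lay far above the highest muscle library for each of these genes, and their log2 changes were 10.21 ± 0.23, 10.74 ± 0.28 and 10.14 ± 0.28 (adjusted p = 1.86e-10, 2.3e-10 and 2.56e-10). The γ constant genes Trgc1 and Trgc2 averaged 2322 ± 51.7 and 628 ± 37.4 CPM in Vg6 cells, against 1.92 ± 0.286 and 0.671 ± 0.7002 CPM in muscle. Other γ variable genes were measured in the sorted cells as well: Trgv2 averaged 169 ± 13.2 CPM in Vg6 cells and 0.182 ± 0.162 CPM in muscle, Trgv1 26.98 ± 8.33 CPM in Vg6 cells and 0.0931 ± 0.161 CPM in muscle, and Trgv4 25.8 ± 2.05 CPM in Vg6 cells with 0 counts in muscle. Trgv5 had 1118 counts in Vg6 cells and 0 in muscle. Trgv1, Trgv2 and Trgv4 were named after their values were seen, and the part of other γδ T cells in these levels was not tested. Trgc4 had 5132 counts in Vg6 cells and 0 in muscle, at least 1468-fold higher when the group at 0 is set to 3 counts in all. Reads that near-identical γ constant genes share leave the split between them uncertain. The CD3 chains, which carry the receptor to the surface and signal for it, followed: Cd3g averaged 1652 ± 36.8 CPM in Vg6 cells and 1.4 ± 0.664 CPM in muscle, and Cd3e 1216 ± 18.8 CPM in Vg6 cells and 2.59 ± 3.33 CPM in muscle, where 6.43 of its CPM came from replicate 3 and the other muscle libraries held 0.615 and 0.72 CPM. All 10 tested genes of the γδ receptor and CD3 list were higher past 4-fold (median log2 change 10.17), 6 of them having passed the filter through the Vg6 libraries alone. The sort itself chose cells by this receptor, so these levels check the label and are no finding.

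Genes of αβ T cells were split. Trac, Trbc1 and Trbc2, constant genes of the α and β chains, were higher in Vg6 cells past 4-fold. Trac stood at 93.2, 118 and 129 CPM in Vg6 cells and 1.54, 1.44 and 0 CPM in muscle. Trbc1 stood at 351, 292 and 359 CPM in Vg6 cells and 1.38, 1.92 and 1.12 CPM in muscle, and Trbc2 at 423, 397 and 352 CPM in Vg6 cells and 1.54, 0 and 0 CPM in muscle. Each of these constant genes was higher in every Vg6 library than in any muscle library. The co-receptor Cd4 of helper T cells and macrophages was lower, at 0.163 ± 0.282 CPM in Vg6 cells and 4.56 ± 1.25 CPM in muscle (log2 change −4.49 ± 0.90, adjusted p = 0.000892), and the co-receptor Cd8a, named after its value was seen, had 0 counts in Vg6 cells and 6 in muscle. Of the 4 tested genes of this list, 1 had passed the filter through the Vg6 libraries alone (Trbc1) and 1 through the muscle libraries alone (Cd4). The p-value of Cd4 is therefore no support for a direction. Variable genes of the β chain, which the list did not hold, were measured in the sorted cells as well. Trbv16, Trbv15 and Trbv1, named after their values were seen, had 171, 120 and 112 counts in Vg6 cells and 0 in muscle. The part of αβ T cells in these levels was not tested.

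Proximal receptor signalling genes were higher with the receptor. Of 18 tested genes of this list 15 were higher and 2 lower (13 and 1 past 4-fold, median log2 change 5.53), 4 having passed the filter through the Vg6 libraries alone. Blk, a Src family kinase known in B cells and IL-17-secreting γδ T cells (chromosome 14, 63372836 to 63417037), stood at 1608, 1636 and 1617 CPM in Vg6 cells and 0.769, 2.16 and 0 CPM in muscle (log2 change 10.70 ± 0.38, adjusted p = 1.35e-09). One muscle library had 0 counts of it, and every Vg6 library lay far above every muscle library. The adaptors Lat, Grap2 and Skap1, which assemble the signalling complex under the receptor, were 401-fold, 103-fold and 169.6-fold higher. Lck, the kinase that starts receptor signalling in T cells and was named after its value was seen, was higher but short of the 4-fold test, at 7.82, 11.8 and 18.4 CPM in Vg6 cells and 4.31, 1.68 and 0 CPM in muscle (log2 change 2.57 ± 0.71, adjusted p = 0.0073).

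Type 17 cytokines were measured in every Vg6 library. Il17a (chromosome 1, 20730905 to 20734496) stood at 456, 436 and 509 CPM in Vg6 cells and had 0 counts in all 3 muscle libraries, at least 2210.4-fold higher (adjusted p = 7.6e-10). Il17f, its closest relative, stood at 18.4, 50.04 and 43.4 CPM in Vg6 cells and 0, 1.2 and 0.559 CPM in muscle (log2 change 6.18 ± 0.68, adjusted p = 1.23e-05). The lowest Vg6 library for Il17f still lay above the highest muscle library. Of the 15 cytokines of the list 6 could be tested, and all 6 were higher past 4-fold (median log2 change 8.11, or 6.82 with the 3 members that had 0 counts in muscle at their bound). Il17a, Il17f, Lta and Tnfsf11 passed the filter through the Vg6 libraries alone, so that they had to be higher, and the count is no support for a direction of the list. Those that failed the filter were low in both groups: the sorted cells had 0 counts of Ifng, the type 1 cytokine interferon γ, 14 of Il22 and 4 of Csf2, all named after their values were seen, against 0, 1 and 0 counts in muscle. A count of 0 over 16601463 counts allows up to 0.181 CPM of Ifng in the Vg6 cells, counting error only.

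**Figure D2:**
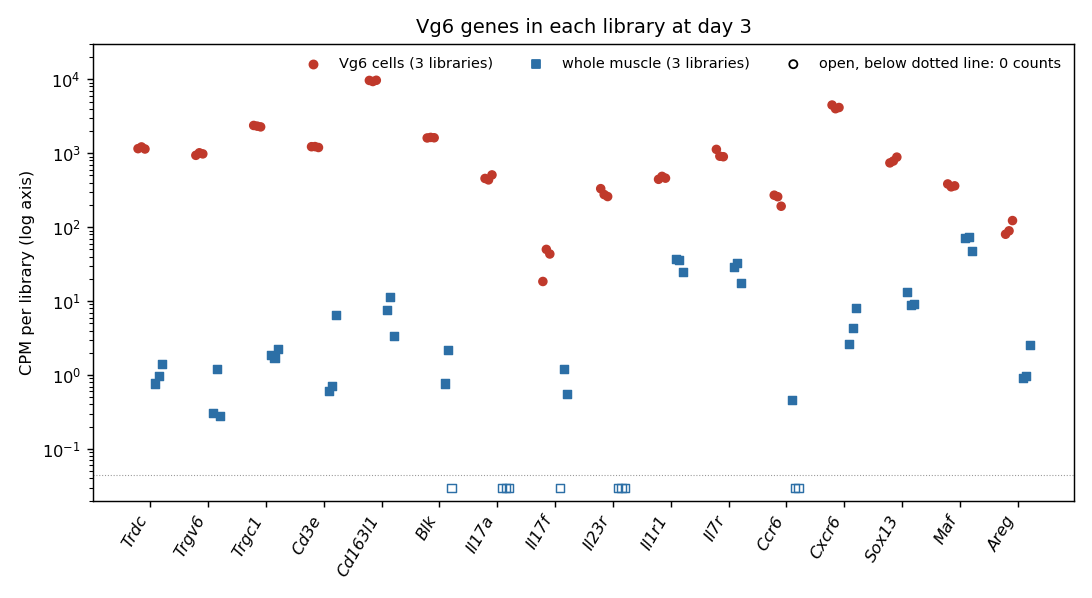
CPM of 16 genes in each library (vertical, log axis), with the 3 Vg6 libraries as circles left of the 3 whole-muscle libraries as squares, and open symbols below the dotted line for 0 counts. Every Vg6 library lies above every muscle library for each gene, with Maf at 351 CPM in its lowest Vg6 library and 73.6 CPM in its highest muscle library as the narrowest gap.

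Promoters of genes at the extremes of the comparison are shown because Il17a had 0 counts in muscle, Cxcr6 was second per length in Vg6 cells among genes higher past 4-fold with a known exon length and Myog had 0 counts in Vg6 cells. The 250 bases before each start were taken from RefSeq (GRCm38.p6) and are written 5′ to 3′ on the gene's own strand. Capitals mark matches on either strand to TGTGGT, a core bound by RUNX factors, to the E-box CAGCTG of myogenic factors and to the MEF2 core. No matches overlapped in the windows shown.
Il17a, chr1:20730655-20730904, plus strand: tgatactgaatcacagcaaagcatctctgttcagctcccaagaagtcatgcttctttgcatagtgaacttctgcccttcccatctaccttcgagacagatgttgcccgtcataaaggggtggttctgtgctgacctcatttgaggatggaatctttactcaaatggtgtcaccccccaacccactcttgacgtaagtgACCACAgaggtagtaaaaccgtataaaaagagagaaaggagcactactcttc
Cxcr6, chr9:123806227-123806476, plus strand: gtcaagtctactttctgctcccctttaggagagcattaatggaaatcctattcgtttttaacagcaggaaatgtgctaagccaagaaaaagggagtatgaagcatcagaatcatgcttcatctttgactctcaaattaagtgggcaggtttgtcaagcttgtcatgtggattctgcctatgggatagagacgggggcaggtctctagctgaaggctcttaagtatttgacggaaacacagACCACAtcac
Myog, chr1:134289754-134290003, plus strand: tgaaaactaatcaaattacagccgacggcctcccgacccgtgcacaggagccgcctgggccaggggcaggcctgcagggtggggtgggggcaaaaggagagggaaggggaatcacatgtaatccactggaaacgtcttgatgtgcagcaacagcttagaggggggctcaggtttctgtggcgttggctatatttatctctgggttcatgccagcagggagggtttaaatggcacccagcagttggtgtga
The Il17a and Cxcr6 windows held 1 RUNX core each. The Myog window held none of the 3 patterns in these exact letters, which does not mean that it lacks other forms of E-box or MEF2 core. RUNX cores were present in 17.2% of 606 promoters matched to genes higher past 4-fold, in 11.6% of 1700 matched to lower ones, in 11.1% of 10248 matched to tested genes and in 14.1% of all 27025. For the E-box the shares were 12.7%, 17.9%, 11.8% and 12.8%, and for MEF2 1.49%, 3.76%, 2.78% and 3.22%, in the same order. Such matches describe letters in the window and are not sites.

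Further ligands higher in Vg6 cells belong to the tumour necrosis factor family. Ltb, one chain of lymphotoxin, stood at 801, 1007 and 932 CPM in Vg6 cells and 2.31, 0.72 and 2.51 CPM in muscle (493-fold, adjusted p = 4.15e-10). Lta, its partner chain, had 615 counts in Vg6 cells and 0 in muscle, at least 176-fold higher. Tnf itself stood at 176, 181 and 241 CPM in Vg6 cells and 5.38, 3.36 and 0.559 CPM in muscle (log2 change 5.90 ± 0.37, adjusted p = 2.52e-07), with no overlap between the groups. Tnfsf11, the ligand RANKL of osteoclast precursors and other myeloid cells, had 61 counts in Vg6 cells (3.59, 3.69 and 3.76 CPM) and 0 in muscle. It was named after its value was seen.

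Growth and repair ligands lay mostly with the tissue. Of 15 tested, 4 were higher in Vg6 cells and 10 lower (2 and 8 past 4-fold, median log2 change −3.22). The filter fixed the direction of some: 5 had passed it through the muscle libraries alone and 1, Areg, through the Vg6 libraries alone. The p-value of Areg below is therefore no support for a direction. Areg, amphiregulin, an epidermal growth factor receptor ligand that regulatory T cells give to injured muscle, stood at 80.2, 89.2 and 123 CPM in Vg6 cells and 0.923, 0.959 and 2.51 CPM in muscle (log2 change 6.18 ± 0.36, adjusted p = 3.28e-08). Furin, the protease that cuts many growth factor precursors, was 6.18-fold higher, at 373 ± 25.9 CPM in Vg6 cells and 61.7 ± 8.19 CPM in muscle. The remaining higher members, Osm and Tgfb1, named after their values were seen, were 5.29-fold and 2.33-fold higher, short of the 4-fold test. In the other direction, Spp1, the macrophage product osteopontin, stood at 0.978, 0 and 2.18 CPM in Vg6 cells and 4837, 2877 and 2995 CPM in muscle, and Pdgfa, a growth factor for mesenchymal progenitors, at 0.593 ± 0.223 CPM in Vg6 cells and 37.6 ± 1.98 CPM in muscle.

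Most members of a list of receptors for cytokines that may act on these cells were higher in the sorted cells. All 19 members of this list were tested, and 15 were higher and 4 lower (12 and 3 past 4-fold, median log2 change 4.81). Through the Vg6 libraries alone 4 had passed the filter, and through the muscle libraries alone 2, so that these had to differ. Il23r and Il18r1 were among the 4, so the p-value of Il23r below is no support for a direction. Il23r, the specific chain of the interleukin 23 receptor (chromosome 6, 67422932 to 67491855), stood at 332, 276 and 259 CPM in Vg6 cells with 0 counts in every muscle library, at least 1385-fold higher (adjusted p = 1.73e-09). Il1r1, the signalling receptor of interleukin 1, stood at 444, 486 and 459.9 CPM in Vg6 cells and 36.8, 35.7 and 24.6 CPM in muscle (log2 change 3.87 ± 0.16, adjusted p = 1.99e-09). Il7r, whose ligand keeps lymphocytes alive, stood at 1126, 911 and 896 CPM in Vg6 cells and 29.2, 32.9 and 17.3 CPM in muscle (log2 change 5.24 ± 0.21, adjusted p = 2.02e-09). None of the 3 overlapped between the groups, and Il1r1 and Il7r were clearly measured in the tissue where Il23r was not. Il18r1, the interleukin 18 receptor, was 592-fold higher, at 379 ± 27.8 CPM in Vg6 cells and 0.673 ± 0.193 CPM in muscle. The interleukin 2 receptor chains Il2ra and Il2rb were 166-fold and 280.3-fold higher, Il27ra 143-fold and Tnfrsf25, the receptor of the cytokine TL1A, 409.6-fold higher. The 3 lower past 4-fold, named after their values were seen, were the interleukin 10 receptor Il10ra (0.527 ± 0.25 CPM in Vg6 cells and 127 ± 4.29 CPM in muscle), the interleukin 6 receptor Il6ra (2.72 ± 1.81 CPM in Vg6 cells and 41.4 ± 5.52 CPM in muscle) and the interleukin 33 receptor Il1rl1 (0.748 ± 0.556 CPM in Vg6 cells and 14.8 ± 9.85 CPM in muscle).

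Chemokine receptors were led by Cxcr6, which guides T cells to cells that display CXCL16 (chromosome 9, 123806475 to 123811760). It stood at 4484, 3998 and 4150.3 CPM in Vg6 cells and 2.61, 4.32 and 8.1 CPM in muscle (log2 change 9.83 ± 0.36, adjusted p = 1.77e-09). Ccr6, a receptor typical of type 17 lymphocytes, stood at 271, 258 and 192 CPM in Vg6 cells and 0.461, 0 and 0 CPM in muscle, where its 3 counts lay in 1 library (count ratio 1152, 95% counting interval 394 to 5589.8). Ccr2, which monocytes also use to enter inflamed tissue, stood at 1753, 1564 and 1524 CPM in Vg6 cells and 161, 148 and 89.7 CPM in muscle (log2 change 3.64 ± 0.19, adjusted p = 1.73e-08). No Vg6 library overlapped a muscle library for these 3 receptors, as for most tested genes, and Ccr2 was well measured in both groups. Cx3cr1, the fractalkine receptor of macrophages, went the other way, at 0.163, 1.29 and 0 CPM in Vg6 cells and 207, 188 and 135 CPM in muscle. Of 13 tested chemokine receptors 7 were higher and 3 lower (5 and 1 past 4-fold, median log2 change 1.61). Through the Vg6 libraries alone 3 had passed the filter, Ccr6 among them, and through the muscle libraries alone 1.

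Transcription factors of type 17 and other T cells were mostly higher in the sorted cells, some with a sizeable level in the tissue. Sox13, a factor of the γδ lineage, stood at 739.6, 784 and 885 CPM in Vg6 cells and 13.2, 8.87 and 9.22 CPM in muscle (log2 change 6.27 ± 0.19, adjusted p = 3.52e-10). Maf, which type 17 γδ T cells need and macrophages also express, stood at 384, 351 and 362 CPM in Vg6 cells and 72.3, 73.6 and 48.1 CPM in muscle (log2 change 2.53 ± 0.15, adjusted p = 5.26e-08). Both were higher in every Vg6 library than in any muscle library. Ikzf3, an Ikaros family factor of lymphocytes, was 1486-fold higher, Ets1, a factor of lymphoid cells, 33.7-fold and Ikzf2, known from regulatory and innate T cells, 27.2-fold higher. Id3, an inhibitor of E proteins that marks other γδ T cell subsets and many tissue cells, was lower, at 1.14, 0.739 and 2.18 CPM in Vg6 cells and 259.6, 219 and 184 CPM in muscle (log2 change −7.31 ± 0.27, adjusted p = 1.07e-09). Zbtb16, which encodes the factor PLZF of innate-like T cells and was named after its value was seen, stood at 213, 243 and 245 CPM in Vg6 cells and 6.46, 14.2 and 9.22 CPM in muscle (log2 change 4.62 ± 0.25, adjusted p = 1.72e-08). Of 26 tested factors 23 were higher and 2 lower (19 and 2 past 4-fold, median log2 change 4.00). Among them 3 had passed the filter through the Vg6 libraries alone and 1 through the muscle libraries alone. Tbx21, the factor of type 1 lymphocytes, was named after its value was seen and did not pass, at 1.96, 5.17 and 5.15 CPM in Vg6 cells and 0.615, 0 and 2.79 CPM in muscle (adjusted p = 0.0766).

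A scavenger receptor led this comparison per length. Cd163l1, a receptor that γδ T cells carry (chromosome 7, 140218267 to 140231145), stood at 9644, 9324 and 9689 CPM in Vg6 cells and 7.54, 11.3 and 3.35 CPM in muscle (log2 change 10.36 ± 0.34, adjusted p = 5.56e-10). Per kilobase of exon it was the highest in Vg6 cells among genes higher past 4-fold with a known exon length, which leaves out Trgc4 and Trgv6, at 2481 CPM per kilobase, followed by Cxcr6 at 2181, the AP-1 factor Junb at 1670.4, the annexin partner S100a10 at 1446 and the class I molecule H2-K1 at 1319. Of these 5 only Cd163l1 and Cxcr6 were below 10 CPM per kilobase in muscle, at 1.92 and 2.6, while Junb stood at 68.7, S100a10 at 305 and H2-K1 at 264. The receptor gene Trdv4, given above, came next by this measure. The other genes at the top, Laptm5, Cd52, Coro1a, Arhgdib and Cd53, mark leukocytes in general and were between 5.001-fold and 9.13-fold higher, and Nfkbia, the inhibitor that NF-κB induces, was 8.17-fold higher.

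Co-stimulatory and co-inhibitory receptors were split unevenly, 9 of 12 tested being higher and 3 lower (7 and 1 past 4-fold, median log2 change 4.68). Their direction was fixed by the filter for 4 that passed through the Vg6 libraries alone and 1 through the muscle libraries alone. Icos, a co-stimulator of activated T cells, averaged 1435 ± 37.6 CPM in Vg6 cells and 2.71 ± 1.79 CPM in muscle, and the inhibitory receptor Pdcd1 (PD-1), named after its value was seen, averaged 1175 ± 112 CPM in Vg6 cells and 0.746 ± 1.09 CPM in muscle. Cd96 and Cd226, which bind nectin-like ligands, were 342-fold and 137-fold higher, and Ctla4 was 64.1-fold higher at the modest level of 36.6 ± 2.11 CPM in Vg6 cells, against 0.58 ± 0.13 CPM in muscle. All 4 tested members of the regulatory T cell list, Ikzf2, Il2ra, Ctla4 and Tnfrsf18, were higher. The filter had been passed through the Vg6 libraries alone by 2 of them, which had to be higher. Foxp3, the gene that defines regulatory T cells, was named after its value was seen and had 1 count in Vg6 cells and 9 in muscle. Of 7 tested natural killer and cytotoxic genes 4 were higher and 1 lower (3 and 0 past 4-fold), with the activating receptor Klrk1 at 516 ± 39.5 CPM in Vg6 cells and 6.39 ± 0.711 CPM in muscle, granzyme Gzmb at 42.5 ± 14.8 CPM in Vg6 cells and 0.948 ± 0.808 CPM in muscle and perforin Prf1 at 23.02 ± 9.24 CPM in Vg6 cells and 1.08 ± 1.48 CPM in muscle.

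Adhesion and trafficking genes were expressed by both, with different members. Itgae, which binds E-cadherin, stood at 931, 1069.8 and 1099 CPM in Vg6 cells and 1.85, 4.08 and 0.838 CPM in muscle (log2 change 8.87 ± 0.30, adjusted p = 6.46e-10). Itgal, the α chain of the leukocyte integrin LFA-1, was 111-fold higher and Itgb3, the β chain of the vitronectin receptor, 14.96-fold higher. Itgam, the α chain of the myeloid integrin Mac-1, was lower, at 0, 0.369 and 0.198 CPM in Vg6 cells and 43.98, 49.4 and 40.5 CPM in muscle. Of 20 tested integrin chains 7 were higher and 10 lower (4 and 9 past 4-fold, median log2 change −0.25). Through the muscle libraries alone 6 of these chains had passed the filter and had to be lower. Of 16 tested trafficking genes 15 were higher and 1 lower (14 and 0 past 4-fold, median log2 change 3.61), among them Cd69, which retains T cells in tissue (259-fold), Rgs1, which dampens chemokine receptor signals (89.4-fold), Gpr183, an oxysterol receptor (22.8-fold), and Dock2, an activator of Rac in moving lymphocytes (17.5-fold). The filter had been passed by 1 trafficking gene through the Vg6 libraries alone and by 1 through the muscle libraries alone.

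**Figure D3:**
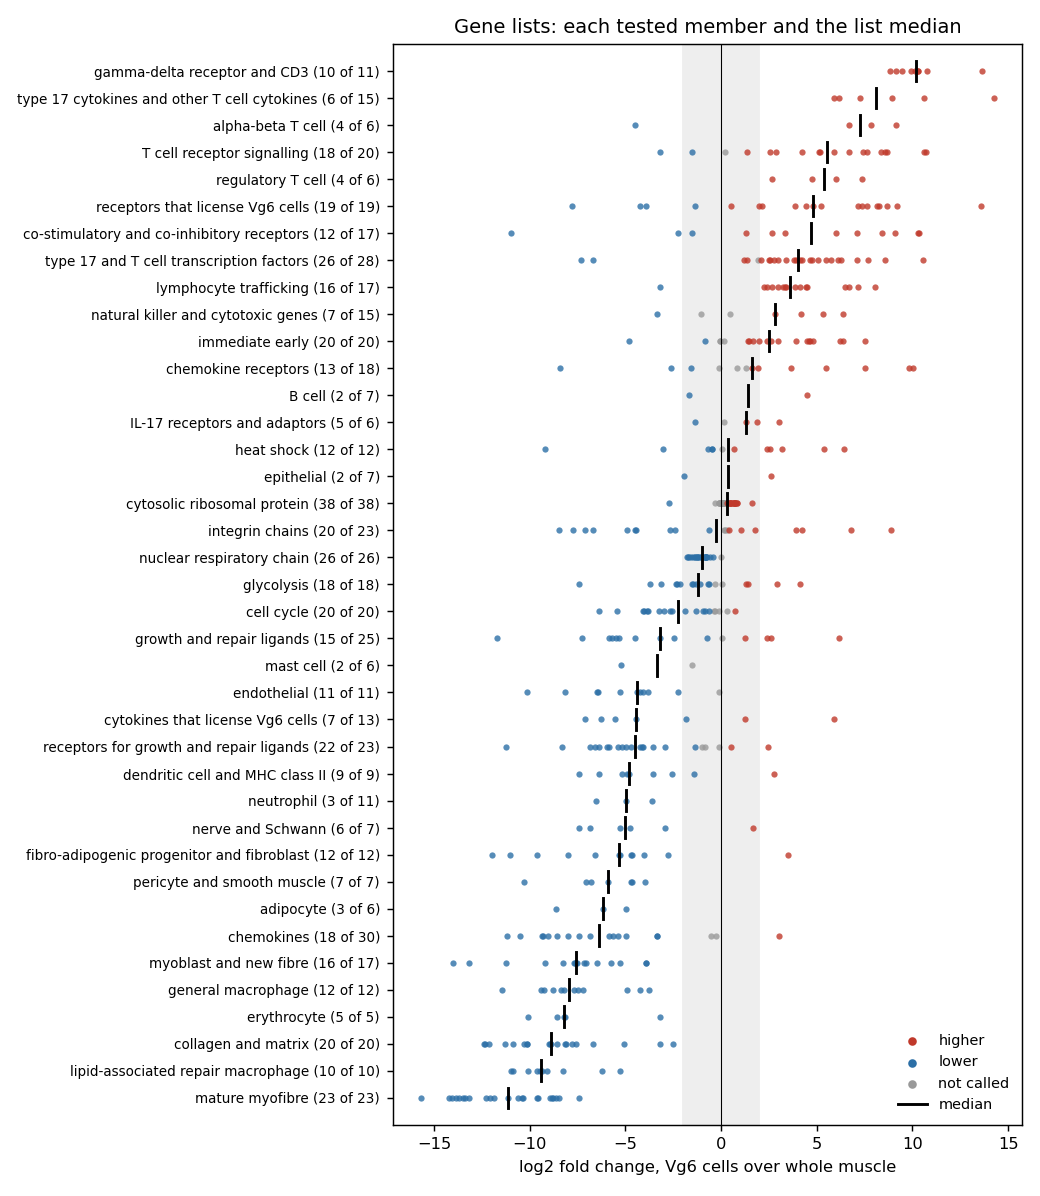
Log2 change, Vg6 cells over whole muscle, of each tested member of the 39 gene lists (points, coloured by the test without a minimum fold) and the list median (bar), with tested of all members in brackets and the span within 4-fold shaded. T cell lists lie at the top, up to a median of 10.17 for the γδ receptor and CD3 list, and lists of fibres, macrophages and matrix at the bottom, down to a median of −11.14 for mature myofibres.

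Muscle genes were nearly absent from the sorted libraries. All 23 genes of mature fibres and all 16 tested genes of myoblasts and new fibres were lower past 4-fold, with median log2 changes of −11.14 (−10.77 with 1 member at its bound) and −7.56. Through the muscle libraries alone, 14 of the fibre and 11 of the myoblast genes had passed the filter and had to be lower. Acta1 and Ckm were among the 14, so their p-values below are no support for a direction. Acta1, skeletal α-actin, stood at 0.326, 0.739 and 0 CPM in Vg6 cells and 10735, 19225 and 30306 CPM in muscle (log2 change −15.67 ± 0.75, adjusted p = 1.53e-07). Ckm, muscle creatine kinase, stood at 1.14, 0.923 and 0 CPM in Vg6 cells and 3819.9, 8845 and 13475 CPM in muscle (log2 change −13.52 ± 0.85, adjusted p = 2.56e-06). Replicate 3 was the highest and replicate 1 the lowest muscle library for both genes, and every muscle library lay far above every Vg6 library. Myog, the factor that drives myoblast differentiation, was even across muscle at 401, 463 and 369 CPM and had 0 counts in Vg6 cells, at least 2276-fold lower. Tpm2, Myot, Hspb7, Tnnc2 and Cox6a2, proteins of the sarcomere, a small heat shock protein of muscle and a muscle cytochrome oxidase subunit, also had 0 counts in Vg6 cells, at least 8795-fold, 2393-fold, 2508-fold, 1749-fold and 1558-fold lower. Without the filter on low counts, Tpm2 and Tnnc2 missed the threshold of the test (adjusted p = 0.0562 and 0.0715) at log2 changes of −16.14 and −13.81. Pax7, which marks satellite cells, had 3 counts in Vg6 cells and 114 in muscle (8.17 ± 2.48 CPM).

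Macrophage genes formed the other large share of the tissue. All 12 general and all 10 repair macrophage genes were lower past 4-fold (median log2 changes −7.97 and −9.43), 4 and 5 of them having passed the filter through the muscle libraries alone. Lyz2, lysozyme, stood at 4.08, 0 and 2.38 CPM in Vg6 cells and 8561, 5919.6 and 5049 CPM in muscle, and Csf1r, the receptor on which macrophages depend, at 0.815, 1.85 and 0.396 CPM in Vg6 cells and 921, 718 and 535 CPM in muscle (log2 changes −11.47 ± 0.68 and −9.39 ± 0.33, adjusted p = 1.81e-06 and 1.02e-09). Trem2, a lipid sensor of macrophages that clear debris, had 3 counts in Vg6 cells and 6369 in muscle, and Apoe, which carries their lipid, stood at 5.87, 2.03 and 5.74 CPM in Vg6 cells and 11046, 8311 and 7009 CPM in muscle. Summed over the general list, levels were 418, 439 and 418 CPM in Vg6 cells and 26964, 19055 and 15832 CPM in muscle, while the mature fibre genes summed to 37353, 79609 and 122511 CPM in muscle, so muscle replicate 1 was richest in macrophage genes and poorest in fibre genes. In the sorted cells the lysosomal proteases Ctsb (295 ± 14.8 CPM) and Ctss (113 ± 1.31 CPM) made up most of that sum.

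Stromal and vascular genes completed the tissue side. All 20 collagen and matrix genes were lower past 4-fold (median log2 change −8.92), 13 having passed the filter through the muscle libraries alone. Col1a1, the chief collagen of scar, stood at 0, 0.554 and 1.58 CPM in Vg6 cells and 2309, 1737 and 1339 CPM in muscle, Col3a1 at 0.286 ± 0.255 CPM in Vg6 cells and 1771 ± 419.6 CPM in muscle, and Sparc, a collagen-binding protein, at 0.69 ± 0.532 CPM in Vg6 cells and 1432 ± 342 CPM in muscle. Of 12 fibro-adipogenic progenitor and fibroblast genes 11 were lower and 1 higher, all past 4-fold, and the higher one was Thy1, which T cells also carry (282 ± 16.3 CPM in Vg6 cells and 25.7 ± 0.674 CPM in muscle). Of 11 endothelial genes 10 were lower (9 past 4-fold), as were all 7 of pericytes and smooth muscle, with Cldn5 of endothelial junctions at 1 count in Vg6 cells and 1487 counts in muscle. Of 9 genes of dendritic cells and MHC class II 8 were lower and 1, the chemokine receptor Xcr1 (31.1 ± 5.02 CPM in Vg6 cells and 4.68 ± 1.16 CPM in muscle, named after its value was seen), was higher (5 and 1 past 4-fold), with the class II chain H2-Aa at 2.84 ± 2.04 CPM in Vg6 cells and 505 ± 78.7 CPM in muscle. Through the muscle libraries alone, 8 of the fibroblast, 6 of the endothelial and 4 of the pericyte genes had passed the filter and had to be lower. The same held for 2 of the dendritic cell and MHC class II genes. In bulk samples, fewer cells of a type and less RNA per cell cannot be told apart.

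Markers of other cells that a sort could carry over were summed per list. Summed CPM in Vg6 cells ran from 0.489 to 6.46 for neutrophil genes, from 0.652 to 1.98 for erythrocyte genes, from 2.61 to 7.72 for pericyte and smooth muscle genes and from 3.75 to 17.5 for myoblast genes. In muscle the same sums ran from 44.4 to 105, from 67.4 to 247, from 256 to 366 and from 3955 to 5619. Other lists kept a sizeable level in the sorted cells. Endothelial genes summed to 187 to 196 CPM in Vg6 cells and 686 to 912 CPM in muscle, with Pecam1, an adhesion molecule that leukocytes share, at 152 ± 6.49 CPM in Vg6 cells and 171 ± 44.02 CPM in muscle and Cdh5, the cadherin that defines endothelium, at 1.68 ± 0.326 CPM in Vg6 cells and 37.1 ± 4.92 CPM in muscle. Nerve and Schwann cell genes summed to 94.7, 122 and 105.9 CPM in Vg6 cells and 179.8, 113 and 95.8 CPM in muscle, with overlapping groups (two-sided exact permutation p = 0.6), and Mbp, the gene of myelin basic protein, made up most of the Vg6 sum, at 104 ± 13.6 CPM in Vg6 cells and 33.5 ± 22.6 CPM in muscle. Pecam1, Cdh5 and Mbp were named after their values were seen. The B cell list summed to 155 to 201 CPM in Vg6 cells and 93.3 to 140 CPM in muscle. There Cd79b, a chain of the B cell receptor, made up most of the sum in the sorted cells, at 116, 153 and 135 CPM in Vg6 cells and 7.997, 3.36 and 6.43 CPM in muscle, while Ighm was lower in Vg6 cells (32.7 ± 13.03 CPM, against 109 ± 24.997 CPM in muscle) and the defining genes Ms4a1 and Pax5, named after their values were seen, had 5 and 10 counts in Vg6 cells and 10 and 5 in muscle.

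Ligands and receptors could be set side by side across both compartments, as levels of transcripts in separate samples. For IL-17A, whose transcript only the Vg6 libraries of the 6 held, both receptor chains were measured in each group. Il17ra stood at 282, 333 and 316 CPM in Vg6 cells and 115, 85.9 and 62.03 CPM in muscle (log2 change 1.86 ± 0.18, adjusted p = 2.78e-06), higher in Vg6 cells and short of the 4-fold test. Il17rc, the partner chain that stromal cells add, stood at 15.5, 14.96 and 29.1 CPM in Vg6 cells and 21.1, 14.2 and 20.1 CPM in muscle, with overlapping groups (log2 change 0.13 ± 0.32, 95% interval of the log2 change −0.77 to 1.03, adjusted p = 0.737) and its direction turned under upper-quartile scaling (−0.00203), without Vg6 replicate 3 (−0.27) and without muscle replicate 2 (−0.04). The adaptor Traf3ip2, which relays the IL-17 signal, was 8.16-fold higher in Vg6 cells and Traf6 2.44-fold higher, while Il17rd was lower (3.79 ± 2.18 CPM in Vg6 cells and 10.1 ± 4.09 CPM in muscle, adjusted p = 0.0439). That call was lost without Vg6 replicate 1 or 2 or muscle replicate 2 or 3, with log2 changes of −1.58, −1.01, −1.45 and −0.97.

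Receptors for other ligands of the sorted cells went both ways. Tnfrsf1b, a receptor of TNF on lymphocytes and myeloid cells, averaged 645 ± 25.6 CPM in Vg6 cells and 168 ± 49.1 CPM in muscle (log2 change 1.98 ± 0.17, adjusted p = 1.1e-06), and Tnfrsf1a, the TNF receptor of most cells, 85.6 ± 3.25 CPM in Vg6 cells and 149 ± 19.6 CPM in muscle (log2 change −0.77 ± 0.13, adjusted p = 0.000297). Both were named after their values were seen, and neither passed the 4-fold test. Ltbr, the lymphotoxin receptor of stromal and myeloid cells, had 0 counts in Vg6 cells and 61.8, 55.2 and 61.2 CPM in muscle, at least 330.5-fold lower. Egfr, the receptor of amphiregulin, stood at 6.52, 6.65 and 2.38 CPM in Vg6 cells and 45.7, 41.3 and 34.4 CPM in muscle (log2 change −2.91 ± 0.34, adjusted p = 1.22e-05). The RANKL receptor Tnfrsf11a stood at 2.77, 4.06 and 1.19 CPM in Vg6 cells and 39.4, 30.7 and 27.1 CPM in muscle, and the oncostatin M receptor Osmr at 0, 0.185 and 0.198 CPM in Vg6 cells and 58.3, 31.2 and 51.97 CPM in muscle. Ltbr, Egfr, Tnfrsf11a and Osmr, which were named after their values were seen, were lower in Vg6 cells past 4-fold with no overlap. Ltbr and Osmr had passed the filter through the muscle libraries alone. Of 22 tested receptors for growth and repair ligands 17 were lower, 2 higher and 3 not called (16 lower and 1 higher past 4-fold, median log2 change −4.48), among the lower ones Il6st, the shared chain of the interleukin 6 family (1.74 ± 1.33 CPM in Vg6 cells and 147 ± 9.98 CPM in muscle), Lifr (0.564 ± 0.349 CPM in Vg6 cells and 67.7 ± 4.99 CPM in muscle) and Tnfrsf12a, the receptor Fn14 (15.5 ± 2.69 CPM in Vg6 cells and 284 ± 7.88 CPM in muscle). Through the muscle libraries alone 6 of the 22 had passed the filter and had to be lower.

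In the opposite direction, ligands of the tissue were set beside receptors of the sorted cells. Cxcl16, the ligand of CXCR6 that macrophages display, stood at 2.93, 2.22 and 3.56 CPM in Vg6 cells and 146, 131 and 102 CPM in muscle (log2 change −5.40 ± 0.23, adjusted p = 3.03e-09). The CCR2 ligand Ccl2 had 3 counts in Vg6 cells and 202, 117 and 84.4 CPM in muscle, and was named after its value was seen. Ccl8 had 0 counts in Vg6 cells and 64.4, 44.1 and 63.1 CPM in muscle. Of 18 tested chemokines 15 were lower and 1 higher (14 and 0 past 4-fold, median log2 change −6.37, or −5.81 with 5 members at their bound). Through the muscle libraries alone 9 of the 18 had passed the filter and had to be lower, and 1 through the Vg6 libraries alone. Of 13 listed cytokines that may act on Vg6 cells 7 were tested, and 2 were higher and 5 lower (1 and 4 past 4-fold, median log2 change −4.44). Among these 7, 3 had passed the filter through the muscle libraries alone and had to be lower. Il1b had 0 counts in Vg6 cells and 1.85, 2.88 and 2.51 CPM in muscle, Il23a 2 counts in Vg6 cells and 0.769, 1.92 and 0 CPM in muscle, and the CCR6 ligand Ccl20 2 counts in Vg6 cells and 1 in muscle. None of these 3 reached the filter, so no test was made. Il33, an alarm signal of stromal cells, and Tgfb3, a growth factor of the TGF-β family, stood at 0.185 ± 0.32 and 2.24 ± 1.1 CPM in Vg6 cells and 29.5 ± 8.9 and 50.3 ± 10.5 CPM in muscle, and Il18, named after its value was seen, at 0.198 ± 0.343 CPM in Vg6 cells and 16.5 ± 4.6 CPM in muscle.

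**Figure D4:**
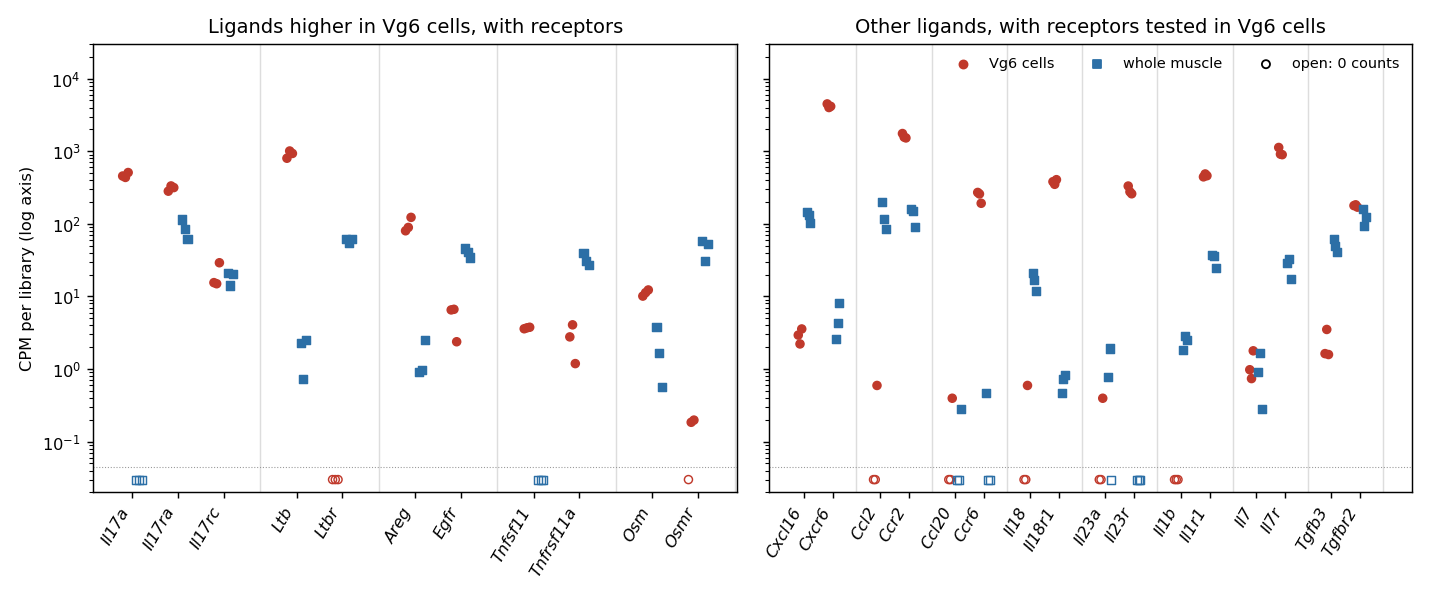
CPM per library (vertical, log axis) of ligands and their receptors, with the 3 Vg6 libraries as circles left of the 3 whole-muscle libraries as squares and open symbols for 0 counts. Left, ligands higher in Vg6 cells: all 3 muscle libraries carry Ltbr at 55.2 to 61.8 CPM while no Vg6 library has a count. Right, ligands of the tissue or low in both: Cxcr6 at 3998 to 4484 CPM in Vg6 cells faces Cxcl16 at 102 to 146 CPM in muscle.

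The level that whole muscle holds of a gene, as a percent of the level in sorted Vg6 cells, gave a further scale. For 6 genes of the receptor chains summed, namely Trgv6, Trgc1, Trgc2, Trgc4, Trdv4 and Trdc, 97833 counts in Vg6 cells stood against 64 in muscle, which puts the muscle level at 0.0762% of that in Vg6 cells (exact 95% counting interval 0.0587 to 0.0973). Several genes that the sort did not use gave a percent whose interval overlapped this one. Cd163l1 stood at 0.0793% (0.0651 to 0.0958), Cxcr6 at 0.106% (0.0819 to 0.136), Blk at 0.0606% (0.0332 to 0.102) and Ikzf3 at 0.0677% (0.0361 to 0.116). At the other end Il7r stood at 2.77% (2.5 to 3.06), Il1r1 at 7.22% (6.57 to 7.92), Ccr2 at 8.61% (8.22 to 9.01) and Maf at 18.2% (16.95 to 19.5), each with an interval wholly above that of the receptor genes. The muscle counts of these 4 were more than the receptor genes would scale to, and the cause was not tested. All these intervals cover counting error on counts summed over the libraries of a group. They leave out the spread between replicates, so overlap with the receptor genes or a gap from them holds for counting error alone. Of 722 genes that were higher past 4-fold and averaged at least 20 CPM in Vg6 cells, 38 had a muscle level of at most 0.2% of the Vg6 level, 66 of 0.2 to 1% and 618 of more than 1%. The limit of 0.2% was set after the values were seen. Muscle and Vg6 libraries differ in input and handling, so the percent is a ratio of shares of RNA and not a share of cells.

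**Figure D5:**
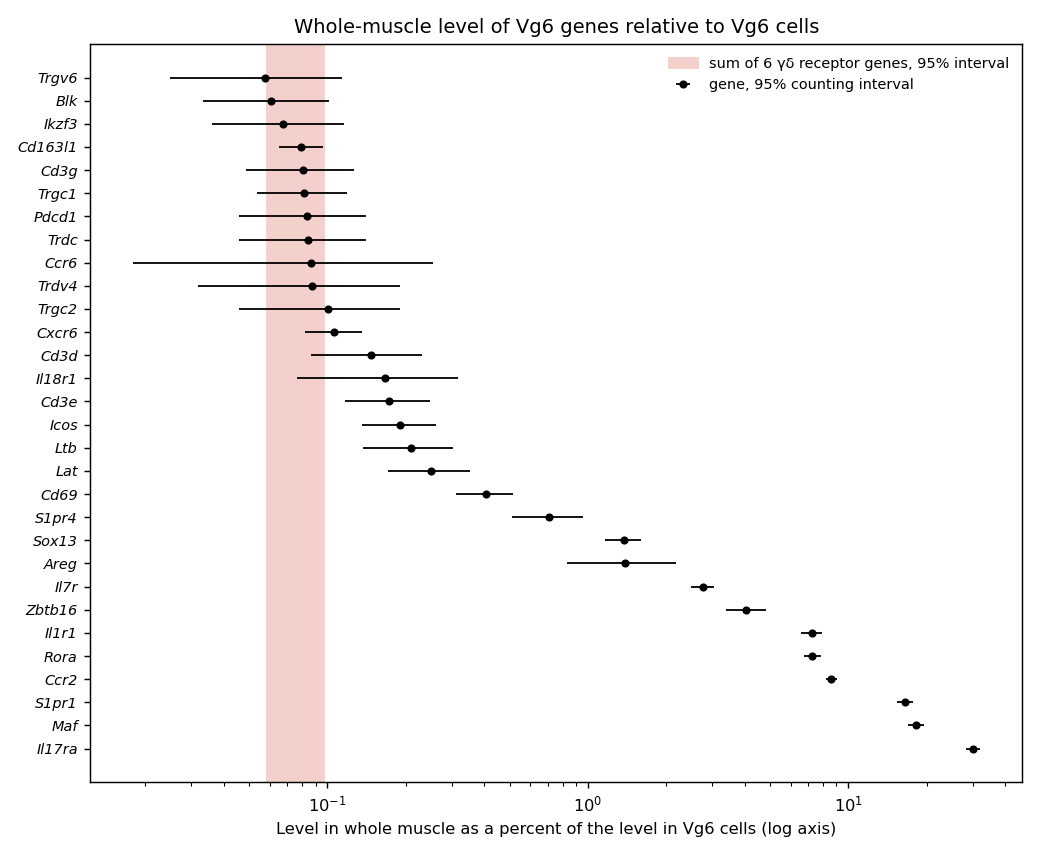
Level in whole muscle as a percent of the level in Vg6 cells (horizontal, log axis) for 30 genes higher in Vg6 cells, with exact 95% counting intervals, and the interval of the 6 summed γδ receptor genes as a band. Cd163l1, Blk and Ikzf3 fall on the band, and Il1r1, Ccr2 and Maf lie far to its right, at more than 6% of the Vg6 level.

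A last group comprised genes at or near 0 in the tissue. With 10 or more counts in every Vg6 library, 187 genes had 3 or fewer counts over the 3 muscle libraries, of which 77 had none. Of the 187, 52 were protein-coding genes, 35 were receptor gene segments and 100 belonged to other classes, among them 23 antisense genes, 14 lincRNAs and 14 processed pseudogenes. The receptor segments were of the α and β chains, such as Traj58 and Trbv16, as well as of the γ and δ chains. Traj58 and Trbv16 were named after their values were seen. Since the strand setting is not given, reads of antisense genes cannot be told apart from those of the genes they overlap. Beyond the cytokine and receptor genes already given, Aqp3, a channel for water and glycerol (chromosome 4, 41092722 to 41098183), stood at 376, 409.9 and 344 CPM in Vg6 cells with 0 counts in muscle, at least 1794-fold higher. Kcnk1, a potassium leak channel, stood at 275, 248 and 202 CPM in Vg6 cells with 1 count in muscle (count ratio 3479, 95% counting interval 624 to 137452). Genes better known from other tissues were among them: the hair keratin Krt83 (131, 96.4 and 104 CPM), the relaxin family peptide Rln3 (74.01, 100.8 and 86.9 CPM) and the apolipoprotein L gene Apol7e (38.1, 40.1 and 51.3 CPM) were measured in all 3 Vg6 libraries and had 0 counts in muscle, at least 529.9-fold, 412-fold and 203-fold higher.

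The mirror group was larger: 643 genes had 10 or more counts in every muscle library and 3 or fewer over the Vg6 libraries, 172 of them none. It comprised 582 protein-coding genes, led by Myl1, Tnni2, Tcap and Tpm2 of the sarcomere. Besides them, Pvalb, a calcium buffer of fast fibres, and Mybpc2, a myosin-binding protein of fast fibres, had 1 count each in Vg6 cells, against 13955 and 13210 in muscle.

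The same genes were looked up in other libraries of the study, as levels without a test. In Vg6 cells sorted from the colon of untreated mice (n = 3), 124 of the 187 genes had 10 or more counts in every library and 3 had 3 or fewer over the group, and of the 643 genes 446 had 3 or fewer. Il17a averaged 361 CPM there, Cd163l1 6799 CPM, Cxcr6 3350 CPM and Rln3 89.9 CPM, while Ccr6 averaged 16.3 CPM, against 240 CPM in the muscle Vg6 cells. In whole muscle of wild-type mice at days 1, 7 and 14, Il17a had 1 count in each group, and Cd163l1 averaged 1.53, 1.27 and 3.12 CPM. In day 3 muscle of Tcrd-DTR mice, in which diphtheria toxin removes γδ T cells, Cd163l1 averaged 0.513 CPM, Blk 0.101 CPM and Cxcr6 3.69 CPM, against 7.39, 0.976 and 5.01 CPM in the wild-type muscle of the same day. Other genes had more counts in the depleted than in the wild-type muscle: Il17a had 3 against 0, Aqp3 11 against 0 and Kcnk1 8 against 1. Of the 187 genes 119 had 3 or fewer counts over that depleted group. Maf averaged 63.8 CPM in that depleted muscle, against 64.7 CPM in wild-type muscle.

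Genes of energy metabolism, the ribosome and the cell cycle were described next. Of 26 nuclear genes of the respiratory chain 25 were lower in Vg6 cells, none past 4-fold (median log2 change −1.01), for example Ndufb8 of complex I (98.6 ± 8.68 CPM in Vg6 cells and 351 ± 50.8 CPM in muscle) and Cyc1 of complex III (159.8 ± 10.4 CPM in Vg6 cells and 529 ± 69.1 CPM in muscle). Of 18 glycolysis genes 12 were lower and 4 higher (3 and 2 past 4-fold). The isoforms parted there: the glucose transporter Slc2a3 and the platelet-type phosphofructokinase Pfkp were 17.4-fold and 7.61-fold higher in Vg6 cells, and the muscle-type phosphofructokinase Pfkm, named after its value was seen, was 175-fold lower. Of 20 cell cycle genes 15 were lower and 1 higher (9 and 0 past 4-fold, median log2 change −2.25). Through the muscle libraries alone 2 of these had passed the filter and had to be lower. Ccna2, a cyclin of DNA synthesis and mitosis, stood at 1.3, 1.29 and 1.78 CPM in Vg6 cells and 144, 139 and 92.5 CPM in muscle, Plk1, a mitotic kinase, was 14.5-fold lower and Rrm2, which makes deoxynucleotides, 8.01-fold lower. Of 38 ribosomal protein genes 18 were higher, 1 lower and 19 not called (0 higher and 1 lower past 4-fold, median log2 change 0.29). The higher ones were led by Rps27 (3.03-fold), and the lowest log2 change of the list was −2.74. Other scalings moved the median log2 change of all genes by −0.11 (DESeq2's size factors) and −0.13 (upper quartile), against which the small ribosomal and respiratory changes are to be read.

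Genes that respond within minutes were high in the sorted cells. Of 20 immediate early genes 15 were higher and 2 lower (10 and 1 past 4-fold, median log2 change 2.51). Among these 1 had passed the filter through the Vg6 libraries alone and 1 through the muscle libraries alone. Junb stood at 3573, 3808 and 4149.7 CPM in Vg6 cells and 191, 142 and 141 CPM in muscle, Dusp1, a phosphatase that ends kinase signals, at 2063, 1756 and 2199.9 CPM in Vg6 cells and 71.1, 79.6 and 74.04 CPM in muscle, and Nr4a2, a nuclear receptor induced by antigen receptor signals, at 247, 244 and 251 CPM in Vg6 cells and 2.15, 3.12 and 4.47 CPM in muscle. Heat shock genes went both ways, 6 of 12 being higher and 5 lower (5 and 2 past 4-fold). Here too 1 had passed the filter through the Vg6 libraries alone and 1 through the muscle libraries alone. Hsph1 and Dnaja1, cytosolic chaperones, were 5.21-fold and 5.79-fold higher, and Hspb1, a small heat shock protein, stood at 0.314 ± 0.243 CPM in Vg6 cells and 197 ± 60.9 CPM in muscle. The sorted cells were digested and sorted before lysis and the muscle was not, so handling and cell state cannot be told apart for these genes.

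Library makeup moved with the groups as well. Transcripts encoded by the mitochondrial genome summed to 6811 to 8930 CPM in Vg6 cells and to 19634 to 27535 CPM in muscle. The repeat-like genes Gm10800 and Gm10801, named after their values were seen, summed to 31935 to 41630 CPM in Vg6 cells and to 3104, 17747 and 6664 CPM in muscle replicates 1, 2 and 3. The part of mitochondrial and repeat-like transcripts in the differences above was not tested.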

How the data were processed

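The members and gene lists were chosen with earlier results of these data known. The authors deposited a table of raw read counts per gene symbol for all libraries, made with STAR 2.7.3a and featureCounts of Subread 2.0.0 on mm10, as the submitters' processing notes record. Strand setting, annotation, library kit and the treatment of multi-mapping reads were not given in the sources used here, so overlapping and near-identical genes may share counts. Positions and exon lengths came from GENCODE M21 (GRCm38), promoter sequences from RefSeq (GRCm38.p6).

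Genes with 10 or more counts in at least 3 of the 6 libraries were tested with edgeR 4.0.16 (R 4.3.3) on the 2 groups alone, with TMM scaling, robust quasi-likelihood dispersions and Benjamini-Hochberg adjustment over all tested genes at 0.05. A second test set a minimum change of 4-fold. CPM divides counts by the library total. For bounds, a group at 0 was set to 3 counts in all, and intervals and floors cover counting error only, since no molecular identifiers are given. With 3 libraries against 3, an exact permutation test of a single value cannot go below p = 0.1.

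Replicates of a group differed by more than sampling noise. On simulated counts for 13410 genes of this comparison, 46 of 98 genes changed 2-fold and 99 of 100 changed 16-fold were recovered, with 17 false calls. Of the 16-fold genes 92 passed the 4-fold test, with 0 false calls. In the simulation all other genes had the same level in both groups, and the direction of change was drawn at random. In the data most genes differed, and more were lower than higher past 4-fold. The simulation therefore cannot tell how scaling and false calls behave in these data.

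Genes were named by rule: up to 12 with the largest change each way past the 4-fold test, without overlap of groups and at 20 CPM or more in the higher group; the 12 highest per kilobase each way; up to 4 per list with the smallest p; and 27 always taken. Other names are given with the remark that their values were known when they were picked. Alternatives were DESeq2 1.42.0, other scalings, filters and minimum folds, other floors, the depleted day 3 muscle as tissue, a replicate block and leaving out each library. Results of some genes are not reported here.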

Additional observations from a re-analysis of the deposited data

How the results depend on the processing

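Of 187 named genes tested, 182 kept their direction and call under every alternative run. Of 1170 counts of list members called under the alternatives 40 moved by over 1.5 times, all of them counts of 5 or fewer, such as the lower IL-17 receptor genes and the higher receptors for growth ligands. Il17rc, at a log2 change of 0.13 and not called, turned to −0.00203 with upper-quartile scaling and, with single libraries left out, ran from −0.27 to 0.29, below 0 without Vg6 replicate 3 (−0.27) and without muscle replicate 2 (−0.04). Tnnc2 and Tpm2 missed the threshold without the filter on low counts at log2 changes of −13.81 and −16.14 (adjusted p = 0.0715 and 0.0562), Krt18 with the depleted muscle as tissue, and Il17rd there and with 4 of the 6 libraries left out in turn. The median log2 change of all genes shifted by −0.11 with DESeq2's size factors and by −0.13 with upper-quartile scaling. Genes higher past a minimum change of 2-fold numbered 2294. DESeq2 called 2699 genes past 4-fold (706 higher, 1993 lower), all shared in direction with the 3298 of edgeR. Genes at the floor in muscle numbered 77 when 0 counts were asked for and 401 when up to 10 were allowed, and 215 to 294 with a library left out, the highest without muscle replicate 1. Those at the floor in Vg6 cells numbered 172 and 1391, and 671 to 1092 with a library left out, the highest without Vg6 replicate 2. Replicate numbers did not pair the samples (correlations of deviations 0.0566, 0.00548 and 0.0187), and with the replicate block 4313 genes were higher and 4756 lower, 963 and 2252 past 4-fold. Depth limits what can be said of genes with few counts in one group, among them Il1b, Il23a, Ccl20 and Ifng.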
